A study of Mus musculus with 22 samples.

Results

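Of the 24421 gene symbols in the count files, 94 began with Srsf, Hnrnp, Rbm, Celf, Mbnl, Esrp, Ptbp, Rbfox, Khdrbs, Nova or Tra2 (Rbm3 was left out). These alternative splicing regulator genes were taken by the form of their names, a rule that uses no measured value, and they comprised 11 SR proteins, 2 Tra2 proteins, 20 hnRNP proteins, 3 PTB proteins, 2 ESRP proteins, 9 CELF and MBNL proteins, 3 STAR proteins (Khdrbs), 5 RBFOX and NOVA proteins and 39 RBM genes. The name RBM says only that a protein has an RNA-binding motif, so that list also held genes whose known work lies elsewhere in RNA metabolism. The counts ignored strand, so reads counted for the antisense genes Rbm3os and Rbm46os could come from either strand. Hnrnpa1 (858 counts over all libraries), Rbm4 and Rbm4b, and Rbm12b1 and Rbm12b2 have near-identical copies that could share reads.

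Alternative splicing decides which exons of a transcript reach the mature mRNA. SR and Tra2 proteins mostly bind exons and promote their inclusion, whereas hnRNP and PTB proteins often silence exons, and the balance between these groups sets the outcome for many exons. Other families act in particular tissues. ESRP proteins direct the epithelial pattern of splicing, while NOVA, RBFOX and several CELF proteins are best known from neurons. Many of these genes also control their own exons, for example through a poison exon with an early stop codon that sends the transcript to decay.

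All 22 libraries came from untreated wild type C57BL/6N male mice aged 5 to 7 weeks. Colon crypts were dissociated with EDTA, and live Epcam+, Cd31-, Cd45- cells were sorted into 6 types by surface Cd44, Cd24 and Ckit. These were stem cells (Stem, Cd44 highest, n = 3), absorptive progenitors (AbsPro, n = 3), a mixed gate of secretory progenitors, deep crypt secretory cells and goblet cells (SecPDG, n = 4), tuft cells (Tuft, Ckit+ and Cd24 high, n = 5), enterocytes (Ent, Cd44 low or negative and Cd24-, n = 5) and enteroendocrine cells (EEC, Cd44 low or negative and Cd24+, n = 2). Each Stem and AbsPro library came from a single mouse, whereas libraries of the other types pooled several mice, so the spread between libraries is not the same kind of spread in all types.

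Gene counts per library ranged from 4122122 (EEC 1) to 22462518 (Stem 2), and the share of reads outside annotated exons ranged from 40.9% to 89.7% and was over 80% in Ent 1, Ent 2, Ent 3 and EEC 1. In this share every Ent library (66.8% to 83.1%) and EEC library (64.5% and 89.7%) lay above every Stem library (45.2% to 48.5%). It cannot be told apart from cell type in comparisons of Ent or EEC with Stem. Tuft 1 to Tuft 4 (59.5% to 68.0%) also lay above every Stem library, whereas Tuft 5 (43.4%) did not. A background set of olfactory and vomeronasal receptor and hair keratin-associated protein genes, foreign to colon, summed to 52.9 to 90.4 CPM (counts relative to library size) in Stem. It summed to 179 to 1468 CPM in Tuft, 775 to 3890 in Ent and 7038 and 616 in the EEC libraries. Low levels in the Ent and EEC libraries are therefore given below relative to that background. The labelled types carried their markers: stem cell markers summed to 801 to 1056 CPM in Stem and at most 454 elsewhere, tuft markers to 1952 to 5121 CPM in Tuft and at most 500.3 elsewhere, and enteroendocrine markers to 80246 to 108045 CPM in EEC and at most 3085 elsewhere. Goblet and secretory markers did not set SecPDG (53656 to 145951 CPM) apart from Tuft (60645 to 86665 CPM), and enterocyte markers did not set Ent (4120.4 to 6913 CPM) apart from AbsPro (4294 to 6594 CPM) or EEC (2958 to 8483 CPM). The count files of SecPDG and Tuft were named in another form than the rest, and whatever that reflects cannot be told apart from cell type.

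The splicing regulators made up 1.42% ± 0.201 (SD, n = 3) of all gene counts in Stem and a smaller share in each of the other types. AbsPro cells gave 1.21% ± 0.13 (SD, n = 3). SecPDG cells gave 1.07% ± 0.106 (SD, n = 4) and Tuft cells 1.00% ± 0.0742 (SD, n = 5). It was 0.895% ± 0.103 (SD, n = 5) in Ent and 0.756% ± 0.144 (SD, n = 2) in EEC. The lowest Stem library (1.20%) lay above every Ent, Tuft, SecPDG and EEC library, and within the range of AbsPro (1.06% to 1.31%). These shares need no scaling between libraries, but a few very abundant genes of a mature cell type can take counts away from all others. Ent 1, Ent 2 and Ent 3, with over 80% of reads outside exons, gave 0.803%, 0.886% and 0.788%. Ent 4 and Ent 5 gave 1.02% and 0.978%. EEC 1 gave 0.654% and EEC 2 0.858%. In Tuft this order was not seen: Tuft 4 (65.9% outside exons) gave 1.09% and Tuft 5 (43.4%) 1.07%. The part of reads outside exons in these shares was not tested. In bulk RNA, fewer cells with a transcript and less of it per cell cannot be told apart.

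**Figure D1:**
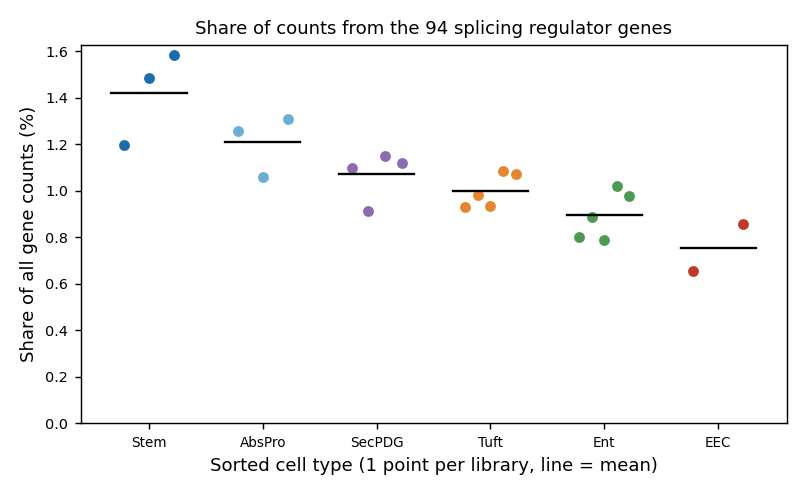
Share of all gene counts that came from the 94 splicing regulator genes, in percent, for each of the 22 libraries by sorted cell type, with 1 point per library and the mean as a line. Stem libraries lie between 1.20% and 1.58%, Ent libraries between 0.788% and 1.02%, and the EEC libraries at 0.654% and 0.858%.

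Ranked by normalized count per kilobase of exon, the same abundant members led most types. Hnrnpa2b1, which packages nascent transcripts and marks RNAs for transport, was the most abundant member in all 6 types, with 7683 ± 1463 (SD, n = 3) normalized counts per kilobase in Stem and 1939.5 ± 1327 (SD, n = 2) in EEC. Hnrnpab followed in AbsPro, SecPDG, Tuft and Stem, where it had 4762 ± 535 (SD, n = 3) normalized counts per kilobase. Srsf5, an SR protein, was the second most abundant in Ent, with 1892 ± 701 (SD, n = 5), and in EEC, with 1919 ± 1665 (SD, n = 2). The 5 leading members of EEC included Celf3, with 1478 ± 1088 (SD, n = 2), and Khdrbs3, with 1185 ± 705 (SD, n = 2), and neither was among the 5 of any other type. A mean of at least 1000 normalized counts was reached by 48 members in Stem, 44 in AbsPro, 45 in SecPDG, 40 in Tuft, 32 in Ent and 29 in EEC. In turn, 18 members lay under 50 normalized counts in Stem and 7 in EEC, and Rbm31y had no count in any library. Some EEC means over 50 rested on EEC 1, the library with the highest background. Rbm24 and Rbm46 had raw counts of 78 and 57 there and 0 and 0 in EEC 2. These numbers therefore do not show that more members are expressed in EEC.

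Each type was compared with Stem in 1 edgeR quasi-likelihood fit of all 22 libraries, in which 93 members had enough counts to be tested and 81 reached the mean of 50 normalized counts that a call also required (adjusted p under 0.01 over all genes). The 5 comparisons share the 3 Stem libraries. In AbsPro 0 members were called, beside 0.629% of all genes with that mean. At an unadjusted p under 0.05 there were 4 of the 93 tested, beside 3030 of all 22781 genes tested, and DESeq2 called 0. In SecPDG 1 member was called, beside 5.36% of all genes, and in Tuft 2 members, beside 11.1%. The counts were higher in the mature absorptive and enteroendocrine cells. In Ent 30 of the 81 were called, beside 23.4% of all genes, 27 lower (all genes 13.7%) and 3 higher (all genes 9.68%). In EEC 27 were called, beside 24.2% of all genes, 21 lower (all genes 12.9%) and 6 higher (all genes 11.4%). A difference somewhere among the 6 types was called for 38 members, beside 44% of all genes, and 38 of 81 is close to that background.

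Over the 81 members the median log2 fold change was -0.17 in AbsPro, -0.25 in SecPDG, -0.54 in Tuft, -0.90 in Ent and -1.12 in EEC. Over all genes with that mean it was 0.04, -0.05, -0.09, -0.30 and -0.33. The scaling matters for these sizes. With DESeq2's size factors the median of all genes shifted to 0.36 in Ent and 0.53 in EEC, and the members' medians to -0.35 and -0.48. The share of higher calls among all genes then moved from 41.4% to 69.9% in Ent and from 46.9% to 72.4% in EEC, while the members stayed mostly lower (3 higher and 24 lower in Ent, 7 higher and 22 lower in EEC). No called member changed sign under any alternative tried. The 4 libraries with over 80% of reads outside exons were left out in a further fit, a choice made after seeing the data. The calls were then 0 higher and 9 lower in Ent (Hnrnpa0, Hnrnpab, Khdrbs1, Ptbp1, Rbm15b, Rbm19, Srsf1, Srsf2 and Srsf7) and 1 higher and 11 lower in Tuft. No Stem or Tuft library was among the 4. In EEC, where only 1 library was left, the members' median log2 fold change was -0.59. The kept Ent 4, Ent 5 and EEC 2 still had 66.8%, 68.8% and 64.5% of reads outside exons, against at most 48.5% in Stem. No share over all genes is given for this setting here or below, so its counts are values only.

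**Figure D2:**
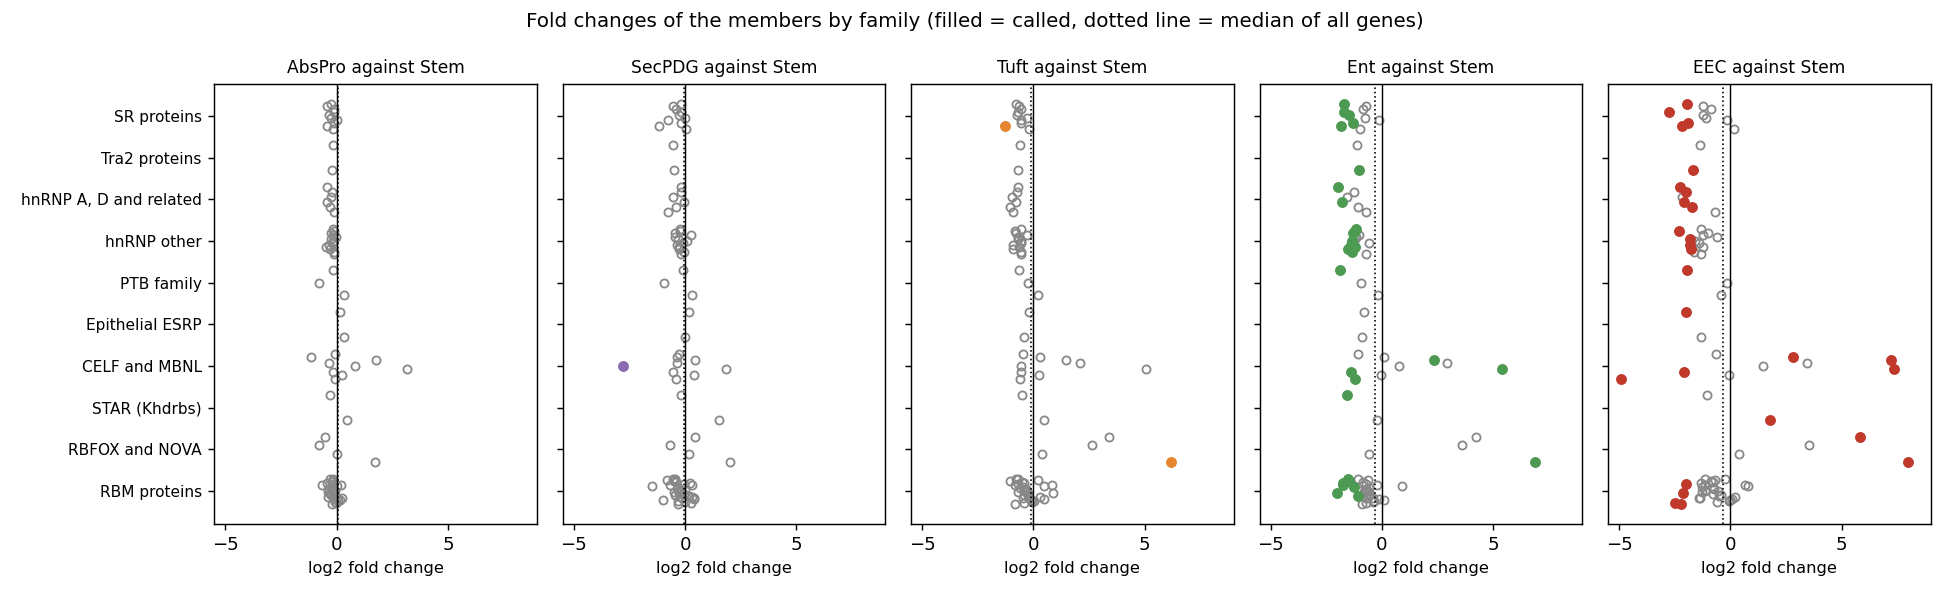
Log2 fold change against Stem (horizontal axis) of the 81 members with a mean of at least 50 normalized counts, by family, in 5 panels for AbsPro, SecPDG, Tuft, Ent and EEC. Filled points are called members (0, 1, 2, 30 and 27), open points are not called, and the dotted line is the median of all genes. Filled points left of it in Ent and EEC are mostly SR and hnRNP proteins, and those far to the right are CELF, RBFOX and NOVA proteins, whose place depends on Stem counts near 0 for Celf6, Nova2 and Rbfox3.

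Summed proliferation markers also differed between the types, at 2792 to 3751 CPM in Stem, 1945 to 2249 in the AbsPro libraries, 2182 to 3157 for SecPDG, 1387 to 1950.0 in Tuft, 498 to 939.8 in Ent and 151 to 549.7 in EEC (10 genes summed, all detected in every type). Their part in the lower regulator levels was not tested.

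Of the SR proteins, the best known activators of exons, 5 of the 10 with sufficient counts fell in Ent and 4 in EEC, beside 13.7% and 12.9% of all genes. The family median log2 fold change was -1.15 and -1.21, beside -0.30 and -0.33 over all genes. The counts of lower members were also 5 and 4 with DESeq2's size factors and 3 and 3 without the 4 libraries with most reads outside exons. Srsf2 (SC35), which marks nuclear speckles, had normalized counts of 4132, 4386 and 4630.4 in Stem, 3762, 4807 and 3706 in AbsPro, 3765, 4425, 3577 and 3906 in SecPDG and 2664, 2567, 2516, 2430.2 and 3358 in Tuft. It had 1083, 1237, 568, 2668 and 1239 in Ent and 253 and 1025 in EEC. Every Ent and EEC library lay below every Stem, AbsPro and SecPDG library. It was 3.22-fold lower in Ent (log2 fold change -1.69 ± 0.36 (SE), adjusted p = 0.000926) and 6.86-fold lower in EEC (log2 fold change -2.77 ± 0.52 (SE), adjusted p = 0.000213).

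Srsf7, an SR protein that also works as an mRNA export adaptor, fell in 3 types. Its normalized counts were 1809, 2942 and 3831 in Stem, 1208, 963, 852, 1163 and 1719.9 in Tuft, 540.0, 804, 437, 1255 and 946 in Ent and 475 and 807 in EEC, with no overlap between Stem and any of the 3. It was 2.42-fold lower in Tuft (log2 fold change -1.28 ± 0.33 (SE), adjusted p = 0.00712), 3.59-fold lower in Ent (log2 fold change -1.84 ± 0.33 (SE), adjusted p = 0.000105) and 4.46-fold lower in EEC (log2 fold change -2.16 ± 0.46 (SE), adjusted p = 0.000738). The call in Tuft was lost when Stem 2, Stem 3, Tuft 1, Tuft 2 or Tuft 3 was left out (adjusted p 0.0115 to 0.0231). SecPDG and AbsPro lay between, at 902, 1109, 1326 and 1750.0 and 2092, 1851 and 2411, and were not called.

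Srsf1 (SF2/ASF), the prototype of the family, had 3243, 4789 and 4859 normalized counts in Stem, 1038, 1238, 629.6, 2369 and 1399 in Ent and 334 and 1888 in EEC, and these ranges did not overlap. It fell 3.22-fold in Ent (log2 fold change -1.69 ± 0.37 (SE), adjusted p = 0.0012) and 3.87-fold in EEC (log2 fold change -1.95 ± 0.51 (SE), adjusted p = 0.00452), the latter not called without EEC 1 (adjusted p = 0.0152). Srsf6 fell 2.49-fold in Ent (log2 fold change -1.32 ± 0.33 (SE), adjusted p = 0.0032) and 3.69-fold in EEC (log2 fold change -1.88 ± 0.45 (SE), adjusted p = 0.0022). The call in Ent was lost without Stem 1 or Ent 2 (adjusted p = 0.0119 and 0.0106). Srsf3, the smallest member, fell 2.78-fold in Ent (log2 fold change -1.48 ± 0.35 (SE), adjusted p = 0.00234), a call lost without Stem 1 (adjusted p = 0.0103), and was not called in EEC (log2 fold change -1.22 ± 0.47 (SE), adjusted p = 0.0358).

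Other SR proteins were not called. Srsf5 had 2809, 3228 and 4376 normalized counts in Stem, 2109, 2431, 2368, 4659 and 4096 in Ent and 1229 and 5128 in EEC, so that its libraries overlapped and it was not called in either (log2 fold change -0.15 ± 0.37 (SE), adjusted p = 0.749 and log2 fold change -0.13 ± 0.46 (SE), adjusted p = 0.863). Srsf9 had 531, 947 and 802 in Stem and 452 and 1275 in EEC, also overlapping (log2 fold change 0.19 ± 0.43 (SE), adjusted p = 0.764). Srsf4, Srsf10 and Srsf11 passed the test in no comparison. In Ent their log2 fold changes were -0.75, -0.73 and -0.85, and in EEC -1.07, -1.21 and -0.85. Srsf12, a rare relative of Srsf10, had no count in any Stem library and 54.1, 71.1, 71.6, 25.1 and 29.1 normalized counts in Ent and 105 and 53.4 in EEC. Its overall mean was under 50, and per kilobase it stood only 2.84, 4.33, 3.92, 3.86 and 2.85 times over the background genes in Ent and 3.52 and 9.58 times in EEC.

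**Figure D3:**
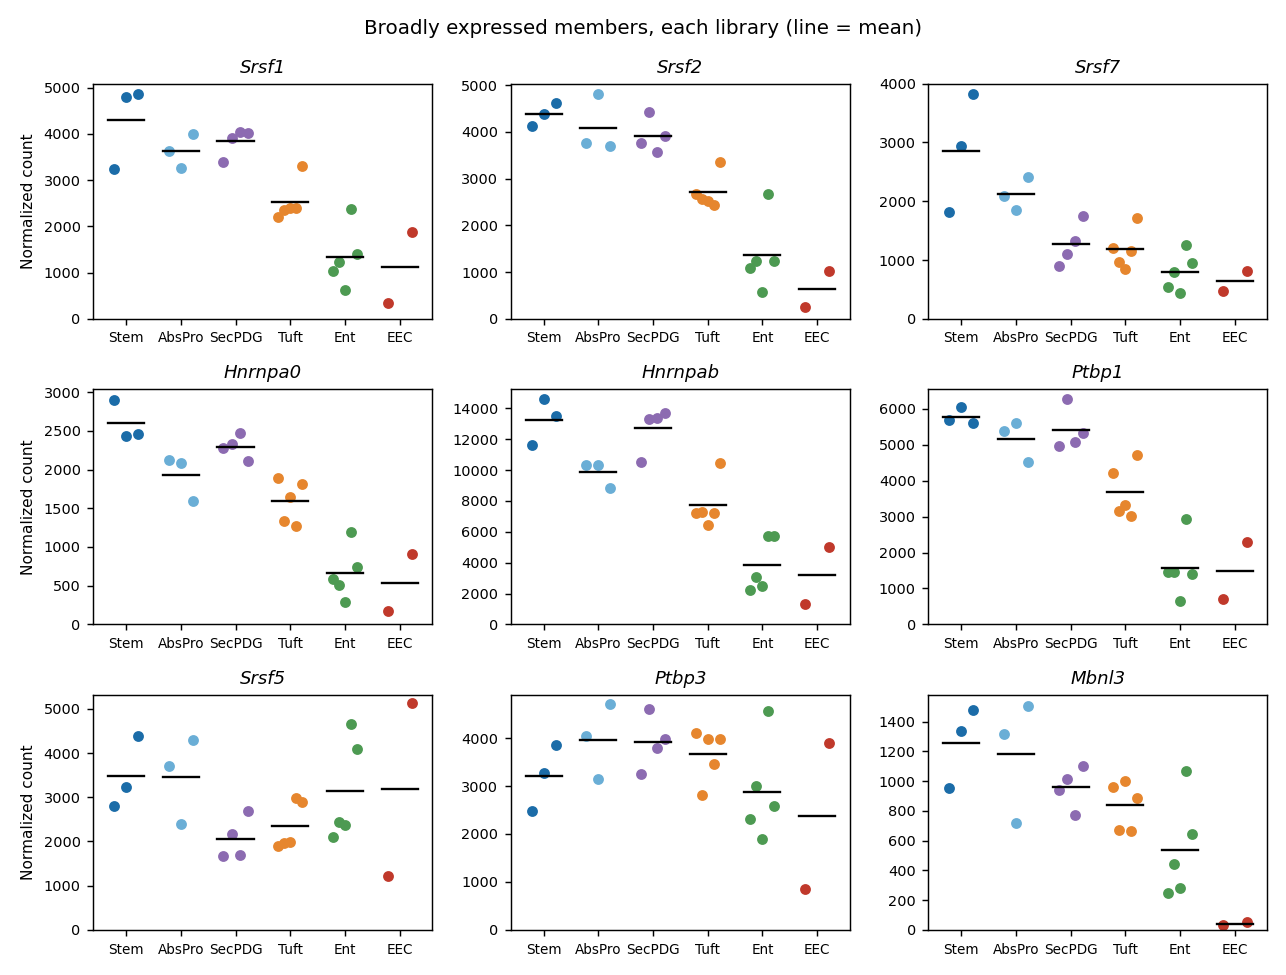
Normalized counts (linear axis) of Srsf1, Srsf2, Srsf7, Hnrnpa0, Hnrnpab, Ptbp1, Srsf5, Ptbp3 and Mbnl3 in each of the 22 libraries by cell type, with 1 point per library and the mean as a line. All Ent and EEC points of Srsf2, Hnrnpa0, Hnrnpab and Ptbp1 lie below all Stem points, whereas Srsf5 and Ptbp3 overlap, and Mbnl3 lies at 32.5 and 49.7 in EEC.

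The regulators' own exons were taken from the skipped exon tables, which give inclusion and skipping counts per library for each type against Stem. Inclusion is the share of transcripts with the exon, from counts divided by the effective length of each form. Over the 5 tables, 96 exons of 47 members had a mean of at least 20 counts per library in both types and were tested by edgeR (adjusted p under 0.05 over all events of a table). Of these, 43.75% had a length divisible by 3, beside 42.73% of all 6288 exons tested, and 74 were coding over their whole length in a protein-coding transcript. In AbsPro 0 of 67 member events were called, with 7 at an unadjusted p under 0.05, beside 0.0935% of all events. In SecPDG 0 of 73 were called, with 9 at an unadjusted p under 0.05, in Tuft 0 of 70, with 6, and in Ent 0 of 58, with 5. The call rate over all events was 0% in SecPDG, 0% in Tuft and 0% in Ent. With only 3 of 3210 events called in AbsPro and 0 of 3748 in SecPDG, 0 member calls do not show unchanged exons. The authors, with another test (rMATS), reported far more skipped exon events between Stem and AbsPro. In EEC 1 of 31 was called, the Rbm10 exon described below, with 2 at an unadjusted p under 0.05, beside 2.69% of all events. The shares of all events given here are of called events. None is given for the unadjusted p, so those counts are values only. The other 6 forms of the test that were run called 0 member exons in AbsPro, SecPDG, Tuft and Ent, while leaving out 1 library gave up to 4 calls in SecPDG. All other exons named below were chosen after their values were seen and are given as values. A library's place in these tables is not tied to its replicate number.

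Srsf3 and Srsf7 each hold a long poison exon, and the stretch around its stop codon is shown because the exon's inclusion bears on how much full-length protein a transcript can give. The sequences below were cut from GENCODE transcripts on mm10, read 5′ to 3′ on the strand of the gene, with the in-frame stop codon of the decay transcript in capitals. The Srsf3 exon lies at chr17:29039454-29039909 on the plus strand (456 bases, stop codon from base 32) and the Srsf7 exon at chr17:80204622-80205081 on the minus strand (460 bases, stop codon from base 26).
Srsf3: tctcaccaccctcTGAatctgcattagcca
Srsf7: gagtcagtcgcctTGAttcagaatgtcacg

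Inclusion of the Srsf7 poison exon was 100.0%, 78.2% and 38.5% in the Stem libraries, 49.8%, 20.0% and 51.5% in AbsPro and 2.47%, 26.2%, 6.23% and 33.7% in SecPDG. In Tuft it was 100.0%, 27.0%, 14.2%, 51.5% and 35.0%, and in Ent 100.0%, 30.7%, 100.0%, 100.0% and 50.1%. The 4 SecPDG libraries lay below all 3 Stem libraries, but the event was not called (edgeR, adjusted p = 0.733), and Stem libraries themselves spanned 38.5% to 100%. The Srsf3 poison exon was at 100.0%, 46.6% and 93.3% in Stem, 56.4%, 27.5% and 58.0% in the 3 SecPDG libraries with counts and 100.0% and 100.0% in EEC, with overlap between Stem and SecPDG (edgeR, adjusted p = 0.733). These long exons also gather reads from partly spliced transcripts, which count as inclusion.

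The Tra2 proteins, SR-like activators that bind GA-rich exon elements, were both measured in every type. Tra2b had 1274, 2138 and 2289 normalized counts in Stem, 541, 762, 803, 1258 and 1282 in Ent and 358 and 819 in EEC. All EEC libraries lay below Stem, and Ent overlapped the lowest Stem library. It fell 3.23-fold in EEC (log2 fold change -1.69 ± 0.41 (SE), adjusted p = 0.00258) and 2.05-fold in Ent (log2 fold change -1.03 ± 0.30 (SE), adjusted p = 0.00892), and the call in Ent was lost without SecPDG 3, SecPDG 4, Tuft 2, Tuft 3, Ent 2 or Ent 3 (adjusted p 0.0102 to 0.0215) and with DESeq2's size factors. Tra2a was not called in Ent (log2 fold change -1.12 ± 0.35 (SE), adjusted p = 0.0113) or EEC (log2 fold change -1.37 ± 0.47 (SE), adjusted p = 0.0189).

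Of the 19 hnRNP genes with sufficient counts, 10 fell in Ent and 8 in EEC, beside 13.7% and 12.9% of all genes, and 0 rose in either. All 19 had a log2 fold change below 0 in Ent and in EEC, also with DESeq2's size factors and library totals, beside 8039 and 7756 of 13188 genes, with medians of -1.23 and -1.62 (-0.72 and -1.14 with DESeq2's size factors). Without the 4 libraries with most reads outside exons, 17 and 18 were below 0, and 2 were called lower in Ent and 5 in EEC. Hnrnpa0, a small member of the A group, had 2904, 2438 and 2465 normalized counts in Stem, 584, 506, 289, 1199.9 and 748 in Ent and 168 and 909 in EEC. Every Ent and EEC library was below every Stem library, and the means differed 3.91-fold for Ent (log2 fold change -1.97 ± 0.37 (SE), adjusted p = 0.000188) and 4.83-fold for EEC (log2 fold change -2.27 ± 0.51 (SE), adjusted p = 0.00137). It was also lower in Ent than in Tuft (log2 difference -1.26 ± 0.33 (SE), adjusted p = 0.00901).

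Hnrnpab had 11644, 14583 and 13518 normalized counts in Stem, 2236, 3089.5, 2473, 5714 and 5705 in Ent and 1298 and 5045 in EEC, again without overlap. It fell 3.45-fold in Ent (log2 fold change -1.79 ± 0.38 (SE), adjusted p = 0.000777) and 4.18-fold in EEC (log2 fold change -2.06 ± 0.52 (SE), adjusted p = 0.00344). Hnrnpf, which binds runs of G, fell 4.89-fold in EEC, from 4071, 4412 and 5165 in Stem to 468 and 1394 (log2 fold change -2.29 ± 0.48 (SE), adjusted p = 0.000739). In Ent it fell 2.31-fold (log2 fold change -1.21 ± 0.35 (SE), adjusted p = 0.00791), a call lost without Stem 1, Tuft 2, Ent 2 or Ent 3 (adjusted p 0.0102 to 0.0199). Hnrnpa2b1 was called lower in the EEC comparison, at 2437 and 7005 against 14707, 19852 and 21544 in Stem (log2 fold change -1.99 ± 0.53 (SE), adjusted p = 0.00498), and not called without EEC 1 (adjusted p = 0.0117). In Ent it had 4839.8, 6044, 4941, 10995 and 11853 and was not called (log2 fold change -1.27 ± 0.39 (SE), adjusted p = 0.0103).

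Hnrnpu, a nuclear scaffold protein, fell 2.87-fold in Ent (log2 fold change -1.52 ± 0.39 (SE), adjusted p = 0.00369), a call lost without Ent 2 or Ent 3 (adjusted p = 0.011 and 0.0105). In EEC the change was close to the threshold (log2 fold change -1.75 ± 0.53 (SE), adjusted p = 0.00993) and was not called without Stem 1, AbsPro 2, SecPDG 1, SecPDG 3, SecPDG 4, Tuft 1, Tuft 2, Tuft 3, Ent 2, Ent 5 or EEC 1 (adjusted p 0.0101 to 0.0299). Hnrnpm fell 2.58-fold in Ent (log2 fold change -1.37 ± 0.35 (SE), adjusted p = 0.00408), lost without Ent 2 or Ent 3 (adjusted p = 0.0125 and 0.011), and 3.50-fold in EEC (log2 fold change -1.80 ± 0.48 (SE), adjusted p = 0.00482), lost without EEC 1 (adjusted p = 0.0109). Hnrnph1 fell 2.44-fold in Ent (log2 fold change -1.29 ± 0.37 (SE), adjusted p = 0.00776), lost without Stem 1, Ent 2 or Ent 3 (adjusted p 0.0165 to 0.02), and was not called in EEC (log2 fold change -1.02 ± 0.49 (SE), adjusted p = 0.0859). The other called hnRNP genes were Hnrnpc, Hnrnpl, Hnrnpr and Hnrnpul1 in Ent, with log2 fold changes of -1.16, -1.33, -1.23 and -1.34, and Hnrnpd and Hnrnpk in EEC, with -1.70 and -1.80. In Ent these calls were lost without Stem 1, Ent 2 or Ent 3 (adjusted p 0.0119 to 0.0242), and that of Hnrnpc also without SecPDG 3, SecPDG 4, Tuft 2 or Tuft 3 (adjusted p from 0.011). In EEC both were lost without EEC 1 (adjusted p = 0.0239 and 0.029), and Hnrnpk also without Stem 1 (adjusted p = 0.0126).

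Among the hnRNP genes' own exons, a 57-base coding exon of Hnrnpd (AUF1, which binds AU-rich elements and speeds mRNA decay) at chr5:99976534-99976590 on the minus strand is printed because its inclusion was higher than the Stem mean in every AbsPro and SecPDG library.
Hnrnpd: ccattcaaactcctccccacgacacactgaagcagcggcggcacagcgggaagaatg

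Its inclusion was 33.3%, 64.7% and 42.6% in Stem, 71.0%, 67.8% and 63.7% in AbsPro and 100.0%, 62.1%, 92.5% and 70.6% in SecPDG. The highest Stem library overlapped both other types, and neither difference was called (adjusted p = 0.489 and 0.611, edgeR). Tuft lay at 61.0%, 45.8%, 86.4%, 64.4% and 66.6% and Ent at 45.4%, 47.8%, 56.9%, 77.2% and 69.9%. A 45-base exon of Hnrnph2 had a large uncalled difference, with 0%, 30.1% and 18.6% in Stem and 100.0%, 90.9%, 100.0% and 68.1% in SecPDG, on a mean of 35.3 and 24.8 counts per library (edgeR, adjusted p = 0.578). In AbsPro it was at 100.0%, 41.9% and 100.0% (edgeR, adjusted p = 0.589). Every AbsPro and SecPDG library lay above every Stem library, and neither difference was called.

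Ptbp1, the polypyrimidine tract binding protein that represses neuronal exons outside neurons, had 5704, 6058 and 5600.0 normalized counts in Stem, 5371, 5594 and 4526 in AbsPro, 4969.9, 6270.1, 5079 and 5319 in SecPDG and 4212, 3156, 3320.2, 3005 and 4719 in Tuft. It had 1463, 1449, 662, 2944 and 1389 in Ent and 701 and 2288 in EEC. Every Ent and EEC library was below every Stem, AbsPro and SecPDG library, and below every Tuft library. Ptbp1 fell 3.66-fold in Ent (log2 fold change -1.87 ± 0.36 (SE), adjusted p = 0.000255) and 3.87-fold in EEC (log2 fold change -1.95 ± 0.49 (SE), adjusted p = 0.00332), the latter lost without EEC 1 (adjusted p = 0.0134), and it was lower in Ent than in Tuft (log2 difference -1.22 ± 0.32 (SE), adjusted p = 0.00948). Its paralogs were not called. Ptbp3 had 2484, 3263 and 3859 in Stem, 2318, 3000.0, 1900.4, 4574 and 2581 in Ent and 848 and 3895 in EEC (log2 fold change -0.16 ± 0.36 (SE), adjusted p = 0.73 and log2 fold change -0.43 ± 0.45 (SE), adjusted p = 0.453). Ptbp2, the neuronal paralog, had 374, 240.1 and 326 in Stem and 154 and 406 in EEC (log2 fold change -0.16 ± 0.61 (SE), adjusted p = 0.871).

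A 78-base coding exon of Ptbp1 at chr10:79860117-79860194 on the plus strand, 1 of the exons by which PTB isoforms differ, was covered in 3 comparisons.
Ptbp1: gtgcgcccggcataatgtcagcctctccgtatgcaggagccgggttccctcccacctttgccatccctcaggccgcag

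Inclusion of this Ptbp1 exon was 58.6%, 22.9% and 72.5% in Stem, 80.5%, 47.5% and 51.2% in AbsPro and 100.0%, 56.8%, 93.2% and 65.7% in SecPDG. In the 4 Tuft libraries with counts it was 69.1%, 100.0%, 70.4% and 67.0%. Stem overlapped all 3 types and no difference was called (adjusted p = 0.83, 0.733 and 0.559, edgeR).

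The epithelial regulators Esrp1 and Esrp2 were expressed in every type. Esrp1 had 4649, 4679 and 5686 normalized counts in Stem, 2089.9, 2774, 1285, 5209 and 3194 in Ent and 443 and 2044 in EEC. It fell 4.02-fold in EEC (log2 fold change -2.01 ± 0.52 (SE), adjusted p = 0.00416), a call lost without EEC 1 (adjusted p = 0.0132), and was not called in Ent (log2 fold change -0.78 ± 0.38 (SE), adjusted p = 0.0864). Esrp2 had 1395, 1338 and 1492 in Stem, 676, 741, 300.4, 1336 and 728 in Ent and 193 and 940.3 in EEC and was called in neither (log2 fold change -0.90 ± 0.37 (SE), adjusted p = 0.0437 and log2 fold change -1.31 ± 0.49 (SE), adjusted p = 0.0315). Inclusion of a 110-base Esrp1 exon that is partly coding was 100.0%, 83.1% and 82.7% in Stem and 52.1%, 32.9% and 75.8% in AbsPro, without overlap but not called (edgeR, adjusted p = 0.445).

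CELF and MBNL proteins bind related CUG-rich and UGC-containing elements and often push the same exons in opposite directions. In this family the direction differed between members: in EEC 3 of 9 rose (Celf2, Celf3 and Celf6) and 2 fell (Mbnl1 and Mbnl3), and in Ent 2 rose (Celf3 and Celf6) and the same 2 MBNL genes fell. Of all genes 11.4% rose and 12.9% fell in EEC, and 9.68% and 13.7% in Ent. Celf2 and Celf3 were the only members called highest in 1 cell type against each of the 5 others, both in EEC, beside 1.18% of all genes called highest there. The same 2 were found with DESeq2's size factors, library totals and the replicate block.

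Celf3, a member known mainly from the nervous system, had 2305 and 7312 normalized counts in EEC. It had 48.2, 24.3 and 24.9 in Stem, 139.9, 69.1 and 123 in AbsPro, 9.45, 87.0, 9.27 and 72.5 in SecPDG, 15.9, 73.2, 159, 81.7 and 118 in Tuft and 214, 166, 164, 87.8 and 183 in Ent. Both EEC libraries lay above all others, and per kilobase they stood 69.9 and 1185 times over the background genes. Celf3 was 148-fold higher in EEC than in Stem (log2 fold change 7.21 ± 0.80 (SE), adjusted p = 5.98e-08), higher than in Ent (log2 difference 4.88 ± 0.59 (SE), adjusted p = 5.96e-07) and higher than in Tuft (log2 difference 5.74 ± 0.60 (SE), adjusted p = 5.47e-08). In Ent it was 5.02-fold higher than in Stem (log2 fold change 2.33 ± 0.61 (SE), adjusted p = 0.00435), at 10.1, 9.15, 8.11, 12.2 and 16.2 times background. That call was lost without Stem 2 or Stem 3 (adjusted p = 0.0275 and 0.0252) and without the 4 libraries with most reads outside exons (log2 fold change 2.17, adjusted p = 0.0187). Enteroendocrine markers summed to 673 to 3085 CPM in Ent and 11.0 to 33.3 CPM in Stem, and their part in the Ent level of Celf3 was not tested.

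Celf2, a broadly expressed member, had 973 and 973 normalized counts in EEC and 179.8, 116 and 117 in Stem, and between 32.5 and 202 in the other 4 types. It was 7.08-fold higher in EEC than in Stem (log2 fold change 2.82 ± 0.55 (SE), adjusted p = 0.000338) and higher than in Ent (log2 difference 2.71 ± 0.47 (SE), adjusted p = 0.000221), and stood 9.88 and 52.8 times over background per kilobase in EEC. Celf6 had 66.9 and 669 in EEC, 108, 98.7, 103, 54.7 and 116 in Ent, 133, 73.2, 89.7, 57.5 and 24.3 in Tuft and 4.59, 1.92 and 0 in Stem. The EEC libraries differed widely, and 1 of them lay within the Ent range. Per kilobase Celf6 stood 2.06 and 110.0 times over background in EEC and 5.21, 5.51, 5.16, 7.73 and 10.5 times in Ent. It was called higher in EEC (log2 fold change 7.34 ± 1.60 (SE), adjusted p = 0.000938), lost without EEC 2 (adjusted p = 0.0171), and in Ent (log2 fold change 5.41 ± 1.41 (SE), adjusted p = 0.00432), lost without Stem 2 or Stem 3 (adjusted p = 0.0224 and 0.0216), without EEC 2, when its mean fell under 50, and without the 4 libraries with most reads outside exons (log2 fold change 5.36, adjusted p = 0.0114).

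Celf5 was the only member called in SecPDG, where it was lower. It had 159.9, 97.9 and 137 normalized counts in Stem, 0, 24.9, 30.3 and 21.5 in SecPDG and 259, 216 and 232 in AbsPro, with every SecPDG library below all Stem libraries (6.87-fold lower, log2 fold change -2.77 ± 0.69 (SE), adjusted p = 0.00967). The call was made in 5 of the 22 fits that each left out 1 library (adjusted p 0.0107 to 0.0399 in the other 17, each of the Stem libraries among them) and was lost with DESeq2's size factors and with the replicate block.

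Mbnl3, the MBNL paralog found mainly in proliferating tissues, had the largest called fall over the 5 comparisons. It had 954, 1335 and 1478 normalized counts in Stem, 247, 443, 282, 1071 and 645 in Ent and 32.5 and 49.7 in EEC. Per kilobase the EEC libraries stood at 0.616 and 5.04 times background, beside 688, 1743 and 1434 times in Stem. It was 30.5-fold lower in EEC (log2 fold change -4.91 ± 0.58 (SE), adjusted p = 1.61e-07), lower than in Ent (log2 difference -3.69 ± 0.53 (SE), adjusted p = 1.3e-05) and lower than in Tuft (log2 difference -4.33 ± 0.55 (SE), adjusted p = 1.15e-06). In Ent, where 1 library overlapped Stem, it was called 2.34-fold lower (log2 fold change -1.22 ± 0.35 (SE), adjusted p = 0.00762), lost without Stem 1, Ent 2 or Ent 3 (adjusted p 0.0118 to 0.0206) and with DESeq2's size factors. Mbnl1 fell 2.59-fold in Ent (log2 fold change -1.37 ± 0.31 (SE), adjusted p = 0.00145) and 4.28-fold in EEC (log2 fold change -2.10 ± 0.43 (SE), adjusted p = 0.000549). Mbnl2 had 1939, 2934 and 3074 in Stem and 1085 and 4074 in EEC and was not called (log2 fold change -0.04 ± 0.45 (SE), adjusted p = 0.986).

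Mbnl1 and Mbnl2 each hold a 54-base coding exon, and the pair is printed to show how alike these exons are. The Mbnl1 exon lies at chr3:60614683-60614736 and the Mbnl2 exon at chr14:120395712-120395765, both on the plus strand and both divisible by 3, and 46 of the 54 bases are the same (85.2%). Capitals mark the 8 bases that differ.
Mbnl1: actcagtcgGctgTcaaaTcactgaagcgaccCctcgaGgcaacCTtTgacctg
Mbnl2: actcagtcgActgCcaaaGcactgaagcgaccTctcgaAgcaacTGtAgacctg

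Inclusion of the Mbnl1 exon was 0%, 28.8% and 56.6% in Stem, 25.8%, 82.5% and 69.1% in AbsPro, 67.8%, 54.3%, 8.46% and 60.8% in SecPDG and 85.6%, 87.3%, 100.0%, 74.0% and 68.2% in Tuft. All 5 Tuft libraries lay above the 3 Stem libraries, but Stem itself spanned 0% to 56.6% and the difference was not called (edgeR, adjusted p = 0.559). Inclusion of the Mbnl2 exon was 43.7%, 32.5% and 64.0% in Stem, 100.0%, 38.5%, 25.3%, 54.7% and 31.9% in Tuft and 0% and 30.5% in EEC. Tuft overlapped Stem, both EEC libraries lay below Stem, and neither difference was called (adjusted p = 0.846 and 0.823, edgeR). A 1049-base, partly coding Mbnl1 exon was covered in all 5 comparisons. It had 65.0%, 95.2% and 60.0% in Stem, 53.2%, 21.5% and 36.9% in AbsPro and 50.9%, 37.9%, 36.2%, 53.4% and 27.6% in Ent, each of these below all Stem libraries. In SecPDG it had 100.0%, 32.9%, 40.7% and 51.6% and in Tuft 93.3%, 38.5%, 16.2%, 38.4% and 36.6%, both overlapping Stem, and in EEC 100.0% and 100.0%. None was called (adjusted p = 0.179 in AbsPro, 0.531 in Ent, 0.733 in SecPDG, 0.559 in Tuft and 0.92 in EEC, edgeR).

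Of the 10 members known mainly from neurons (Celf3 to Celf6, Nova1, Nova2, Rbfox1, Rbfox3, Ptbp2 and Khdrbs2), those called in Ent or EEC were Celf3, Celf6, Nova2 and Rbfox3. Which members could be called depended in part on EEC itself, since without the EEC libraries the mean normalized count was under 50 for Celf4 (43.5), Celf6 (47.9) and Nova2 (45.3). Genes that are near 0 in Stem and pass through the type in which they are high can only rise, so their number is given no weight here. For Celf6, Nova2 and Rbfox3 the size of a fitted fold change also depends on few Stem counts and is no bound.

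Nova2, a neuronal regulator of exon inclusion, had 184 and 472 normalized counts in EEC, 0, 0 and 16.8 in Stem, 89.1, 75.7, 61.9, 44.9 and 27.6 in Tuft and 155, 88.3, 184, 50.2 and 69.2 in Ent. EEC 2 lay above every other library, while EEC 1 was level with the highest Ent library, and per kilobase they stood 2.17 and 29.7 times over background. It was called higher in EEC (log2 fold change 5.83 ± 1.63 (SE), adjusted p = 0.00638), lost without Stem 1, Stem 2 or EEC 2 (adjusted p = 0.0236, 0.027 and 0.0197) and without the 4 libraries with most reads outside exons (adjusted p = 0.0148).

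Rbfox3 (NeuN), a marker of mature neurons, had raw counts of 0, 0 and 4 in Stem, 100, 103, 28, 57 and 27 in Tuft, 145, 116, 137, 42 and 46 in Ent and 194 and 147 in EEC. It was called higher in all 3 types (adjusted p = 0.00462, 0.00137 and 0.00068, edgeR), and no fold is given since Stem was near 0. Per kilobase it stood 12.96, 7.45, 2.29, 4.47 and 7.60 times over background in Tuft, 6.65, 4.84, 5.18, 4.40 and 3.73 in Ent and 7.04 and 19.1 in EEC. In the 1 Stem library with counts it stood 2.77 times over background. The call in Tuft was lost without Stem 1, Stem 2 or Tuft 2 (adjusted p = 0.0269, 0.0303 and 0.0104). Without the 4 libraries with most reads outside exons it was called in none of the 3 (adjusted p = 0.0114, 0.0267 and 0.00868, with a mean under 50).

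Khdrbs3 (SLM2), a STAR protein related to Sam68, was detected in every library. It had 674, 565 and 689 normalized counts in Stem, 1466, 2145, 1873 and 1908 in SecPDG, 294, 320.1, 476, 631 and 1057 in Ent and 1294 and 3177 in EEC. SecPDG and EEC lay above all Stem libraries. It was called higher in EEC than in Stem (3.48-fold, log2 fold change 1.80 ± 0.43 (SE), adjusted p = 0.0022) and than in Ent (log2 difference 2.01 ± 0.37 (SE), adjusted p = 0.000537), the former lost without EEC 2 (log2 fold change 1.01, adjusted p = 0.066), and was not called in SecPDG (log2 fold change 1.52 ± 0.38 (SE), adjusted p = 0.0102). That result lay at the threshold. Khdrbs3 was called higher in SecPDG with DESeq2's size factors (adjusted p = 0.000323), library totals (0.00118), the replicate block (0.00473) and without the 4 libraries with most reads outside exons (2.66e-05), and in 9 of the 22 fits that each left out 1 library. Khdrbs1 (Sam68) fell 2.97-fold in Ent (log2 fold change -1.57 ± 0.34 (SE), adjusted p = 0.000954), also without the 4 libraries with most reads outside exons (log2 fold change -0.96, adjusted p = 0.00731), and was not called in EEC (log2 fold change -1.06 ± 0.45 (SE), adjusted p = 0.0537).

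Markers of enteric neurons and glia (8 genes) summed to 242 to 254 CPM in EEC, 17.4 to 86.7 in Ent, 12.01 to 31.7 in Tuft and 3.57 to 7.43 in Stem. In EEC 2, the library with the higher Celf3, Celf6 and Nova2 levels, Ret alone gave 249 CPM, while Tubb3, Sox10 and S100b were at 0. In EEC 1, Ret gave 153 CPM, Hand2 23.8 and Sox10 21.1. EEC 1 was also the library with the most reads outside exons, and Rbfox3, Celf4 and Rbfox1 were higher in it than in EEC 2 (Rbfox3 351 and 178 normalized counts). The summed markers of other cells also differed between the types. Stromal markers (8 genes) summed to 25.8 to 533 CPM in EEC, 45.4 to 247 in Ent and 6.77 to 18.6 in Stem. Endothelial markers (4 genes, Cldn5 at 0 in EEC) summed to 49.0 to 153, 19.0 to 74.0 and 0.668 to 1.09 in the same types. Immune markers (8 genes, Cd79a at 0 in EEC) summed to 35.6 to 295 in EEC, 27.8 to 116 in Ent, 91.0 to 269 in Tuft and 11.9 to 14.7 in Stem. The part of such cells in the members called higher was not tested.

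**Figure D4:**
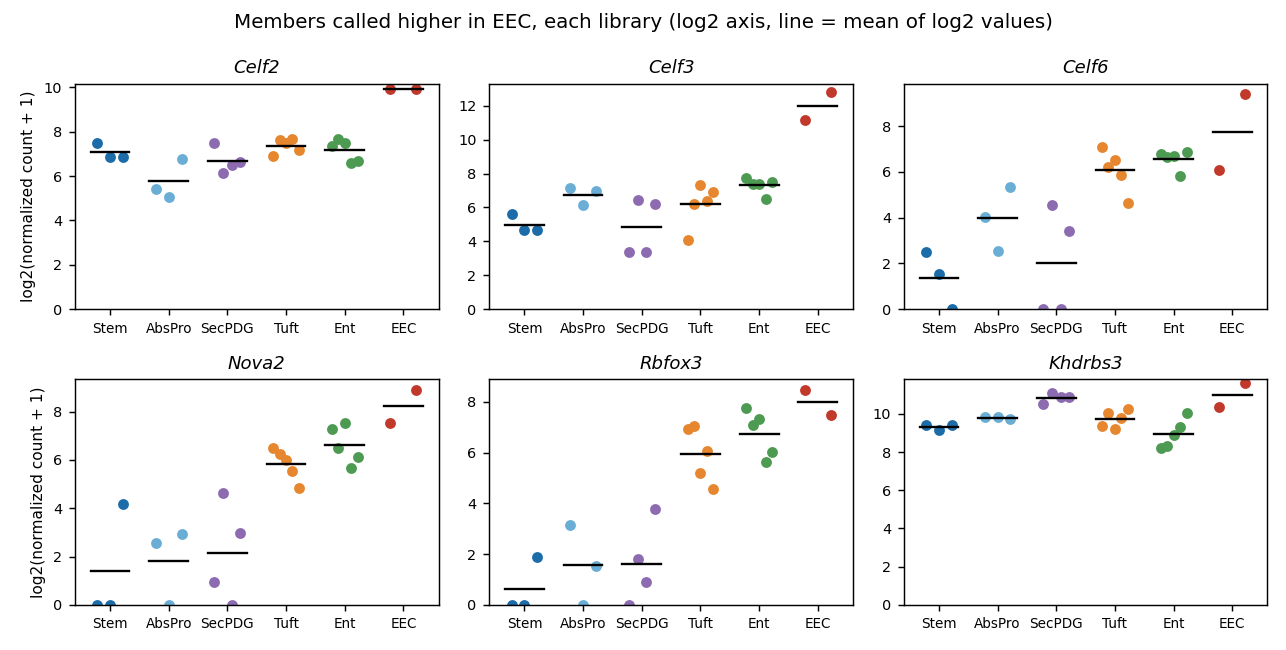
Log2 of the normalized count plus 1 for Celf2, Celf3, Celf6, Nova2, Rbfox3 and Khdrbs3, the 6 members called higher in EEC, in each of the 22 libraries by cell type, with 1 point per library and the mean of the log2 values as a line. Both EEC points of Celf2 and Celf3 lie above all others, while Celf6, Nova2 and Rbfox3 also have points well above Stem in Tuft and Ent.

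The RBM list is mixed in function. Of the 30 with sufficient counts, 7 fell in Ent and 4 in EEC, beside 13.7% and 12.9% of all genes, and 0 rose. The count in EEC is thus near the background. Without the 4 libraries with most reads outside exons 2 fell in Ent and 3 in EEC. The medians were -0.72 and -0.77 beside -0.30 and -0.33 over all genes. With DESeq2's size factors the medians were -0.20 and -0.10 and the calls 5 and 3. Rbm38, a p53 target that also regulates mRNA stability, had 978, 767, 1223, 1740.1 and 1435 normalized counts in Tuft, 643, 855 and 538 in Stem, 111, 111, 134, 302 and 187 in Ent and 101 and 207 in EEC. Ent and EEC lay below all Stem and Tuft libraries. It fell 4.01-fold in Ent (log2 fold change -2.003 ± 0.36 (SE), adjusted p = 0.000108) and 4.40-fold in EEC (log2 fold change -2.13 ± 0.50 (SE), adjusted p = 0.00179), the latter lost without EEC 1 (adjusted p = 0.015). Compared with Tuft it was lower in Ent (log2 difference -2.86 ± 0.34 (SE), adjusted p = 1.39e-07) and in EEC (log2 difference -2.98 ± 0.50 (SE), adjusted p = 8.75e-05).

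Rbm7, an adaptor of the nuclear exosome, had 633, 737 and 849.7 normalized counts in Stem and 68.7 and 192 in EEC and fell 5.68-fold (log2 fold change -2.49 ± 0.48 (SE), adjusted p = 0.00025). It was also lower in EEC than in Tuft (log2 difference -2.06 ± 0.45 (SE), adjusted p = 0.0018). Rbm8a (Y14), a core protein of the exon junction complex, and Rbm17 (SPF45) fell in EEC, with log2 fold changes of -2.23 and -2.01, Rbm17 not with DESeq2's size factors. In Ent the other 6 that fell were Rbm10, Rbm14, Rbm15b, Rbm19, Rbm22 and Rbm42, with log2 fold changes from -1.75 (Rbm15b) to -1.05 (Rbm42). Rbm22 was not called without Stem 1, Ent 2 or Ent 3 (adjusted p 0.0154 to 0.0261), Rbm42 not without Ent 2 or Ent 3 (adjusted p = 0.0135 and 0.012), and neither with DESeq2's size factors. Rbm39, a coactivator and splicing factor among the most abundant members in Tuft and Ent, had 4636, 5127 and 6818 in Stem, 3292, 4079.9, 3718, 5202 and 7057 in Tuft and 2314, 3169, 2850.0, 5423 and 5501 in Ent and was not called (log2 fold change -0.24 ± 0.35 (SE), adjusted p = 0.623 and log2 fold change -0.52 ± 0.35 (SE), adjusted p = 0.215).

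Rbm10, a regulator of exon inclusion whose gene is on the X chromosome, held the only called exon of any member. It is a 74-base coding exon at chrX:20641183-20641256 on the plus strand, so its skipping changes the reading frame.
Rbm10: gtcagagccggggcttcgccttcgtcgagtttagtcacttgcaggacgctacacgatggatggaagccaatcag

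The 2 Stem libraries with counts included the Rbm10 exon at 100%, with 90 and 38 inclusion counts and 0 skipping counts. The 1 EEC library with counts had 24 inclusion and 86 skipping counts, an inclusion of 13.8% (edgeR, adjusted p = 0.00977). The call thus had no second EEC library to show a spread. At a minimum of 50 counts the exon fell under the minimum and was not tested. The same held without the EEC library with counts or without the Stem library with 90 inclusion counts. The exon was tested but not called when either of the other Stem libraries was left out. It was also not called in 4 of the 6 other forms of the test (adjusted p 0.39 to 0.847 for this Rbm10 exon). The event was not tested in the other 4 types. Rbm10 itself had 1369, 1582 and 1342 normalized counts in Stem, 481, 405, 288, 781 and 570.5 in Ent and 447 and 847 in EEC. It fell in Ent (2.83-fold, log2 fold change -1.50 ± 0.30 (SE), adjusted p = 0.000402) and was not called in EEC (log2 fold change -1.14 ± 0.40 (SE), adjusted p = 0.0214).

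**Figure D5:**
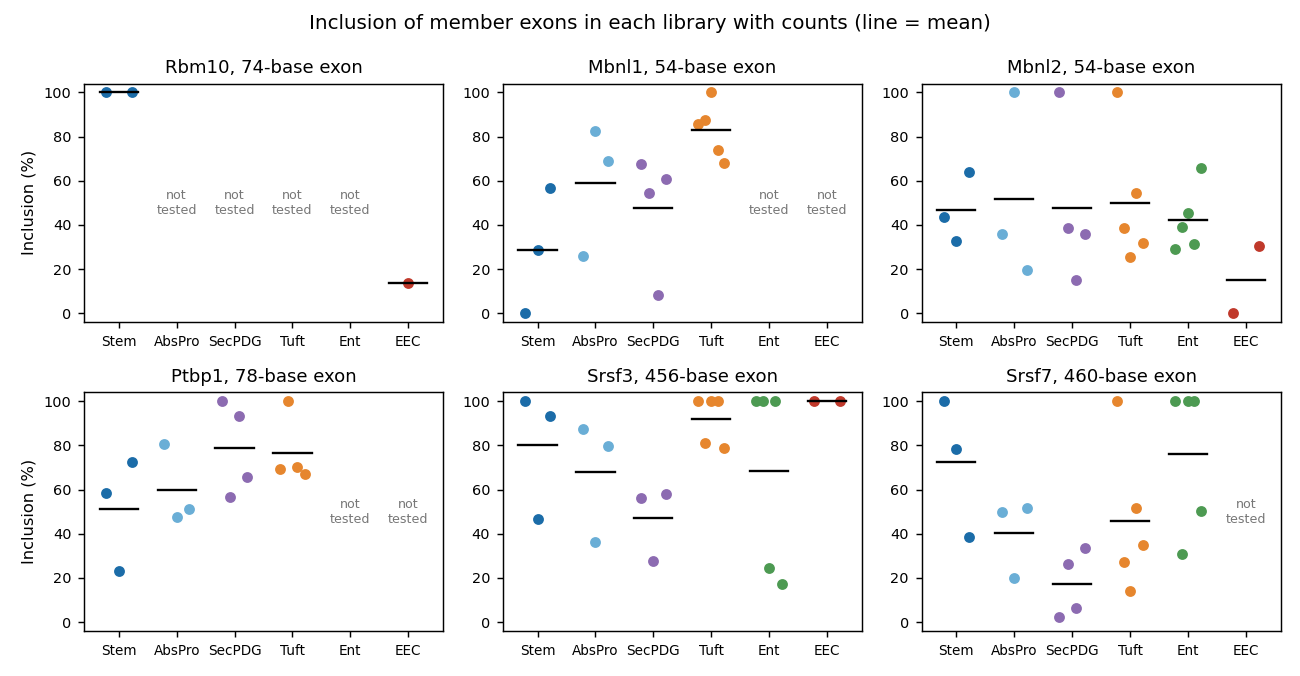
Inclusion in percent of the 6 exons whose sequence is given for Rbm10, Mbnl1, Mbnl2, Ptbp1, Srsf3 and Srsf7, in each library with counts, by cell type, with the mean as a line. The types marked as not tested had too few counts or no such event. The only called difference is that of Rbm10, at 100% in Stem and 13.8% in 1 EEC library, and the Stem libraries of Srsf7 span 38.5% to 100%.

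In comparisons between the mature types, which use no Stem library, 4 members were called in EEC against Ent, beside 4.98% of all genes (Celf2, Celf3 and Khdrbs3 higher and Mbnl3 lower). In EEC against Tuft 7 were called, beside 9.16% of all genes (Celf2 and Celf3 higher and Mbnl1, Mbnl3, Rbm38, Rbm7 and Srsf2 lower). In Ent against Tuft 5 were called lower (Hnrnpa0, Ptbp1, Rbfox2, Rbm15b and Rbm38), beside 10.9% of all genes. As parts of the members with sufficient counts, none of these numbers exceeds the share of all genes, and they are given as values only. Rbfox2, the broadly expressed RBFOX protein, had 509, 373, 412, 698 and 503 normalized counts in Ent and 806, 847, 1101, 1156 and 1009.7 in Tuft (log2 difference -0.98 ± 0.25 (SE), adjusted p = 0.00758), with no overlap. With DESeq2's size factors the calls were 10, 12 and 7, and included all of these but Rbfox2. With the replicate block they were 4, 7 and 6, without Mbnl1. No share over all genes is given for these settings. These contrasts were not refitted without single libraries.

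Among members not called in any comparison, Celf4 and Rbfox1, both known from neurons, had few counts in Stem. Celf4 had 0.765, 23.7 and 13.5 normalized counts in Stem, 64.4, 141, 124, 75.3 and 88.6 in Ent and 222 and 60.7 in EEC (log2 fold change 3.47 ± 1.56 (SE), adjusted p = 0.0693). Rbfox1 had 13.8, 0 and 21.6 in Stem, 136, 161, 199.9, 62.7 and 155 in Ent and 193 and 83.7 in EEC (log2 fold change 3.54 ± 1.63 (SE), adjusted p = 0.0749). Celf1, the broadly expressed CELF protein, had log2 fold changes of -1.06 in Ent and -0.66 in EEC. The 13 members with a mean under 50 normalized counts, which could not be called, were Hnrnpa1, Khdrbs2, Nova1, Rbm11, Rbm12b1, Rbm24, Rbm31y, Rbm3os, Rbm4, Rbm44, Rbm46, Rbm46os and Srsf12. Celf4, Rbfox1 and Celf1 were named after their values were seen.

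Other splicing regulators outside these name families were counted from a list of 48 genes, 44 of them with sufficient counts. In AbsPro 1 was called, in SecPDG 0 and in Tuft 1. At an unadjusted p under 0.05 there were 5 of the 48 in SecPDG, beside 4761 of all 22781 genes tested. In Ent 17 were called, all lower, beside 13.7% of all genes. In EEC 10 were called, 8 lower and 2 higher, beside 12.9% and 11.4% of all genes. The 10 calls in EEC are near the 24.2% of all genes called there and are given as values only. Without the 4 libraries with most reads outside exons 6 were called lower in Ent and 5 lower and 2 higher in EEC. Msi1, an RNA-binding protein of stem and progenitor cells, had 226, 139 and 220.3 normalized counts in Stem and 19.1, 20.3 and 29.1 in AbsPro and fell there (log2 fold change -3.09 ± 0.57 (SE), adjusted p = 0.00307), and it also fell in Ent (log2 fold change -1.76 ± 0.46 (SE), adjusted p = 0.00445). It did not fall in every type: it had 386, 186, 636, 630 and 364 in Tuft and 517 and 919 in EEC. Neither of these differences from Stem was called. Raly fell in Tuft (log2 fold change -1.18 ± 0.30 (SE), adjusted p = 0.00668), Ent (log2 fold change -1.57 ± 0.30 (SE), adjusted p = 0.000257) and EEC (log2 fold change -2.52 ± 0.43 (SE), adjusted p = 5.48e-05). The largest fall in Ent was that of Khsrp (log2 fold change -2.15 ± 0.35 (SE), adjusted p = 3.58e-05). The remaining falls in Ent included those of Pcbp1, Pcbp2, Nono, Elavl1, Ewsr1, Matr3, Syncrip, Fubp1, Fubp3, Sfpq, Srrm1, Tial1 and the SR protein kinase Srpk1, with log2 fold changes from -1.87 (Pcbp2) to -0.99 (Fubp3). Those in EEC were Pcbp2, Ewsr1, Taf15, Tardbp, Nono, Syncrip and Khsrp, from -2.03 (Khsrp) to -1.50 (Ewsr1).

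The 2 that rose in EEC are both known from neurons. Elavl3 (HuC) had 439 and 529 normalized counts in EEC and 3.06, 0 and 4.72 in Stem (log2 fold change 7.49 ± 1.72 (SE), adjusted p = 0.00154), and 71.7, 99.8, 113, 21.7 and 62.3 in Ent. Srrm4 (nSR100), an activator of neuronal microexons, had 729 and 182 in EEC, 22.9, 25.6 and 2.02 in Stem and 233, 195, 259, 90.1 and 112 in Ent (log2 fold change 4.74 ± 1.23 (SE), adjusted p = 0.00399). Elavl3 reached a mean of 50 only through EEC (mean without EEC 30.2), so that its call could only be a rise, while Srrm4 had a mean of 72.1 without EEC. EEC 1, the library with most reads outside exons, held the higher Srrm4 level and EEC 2 the higher Elavl3 level. Without the 4 libraries with most reads outside exons Elavl3 was called in EEC (log2 fold change 7.67, adjusted p = 0.0068) and Srrm4 was not (3.48, adjusted p = 0.127). With DESeq2's size factors Elavl3, Elavl4 and Srrm4 were called higher in EEC and in Ent. The calls on this list were not refitted without single libraries.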

How the data were processed

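The authors aligned reads to mm10 with STAR 2.5.2a and deposited gene counts per library from HTSeq 0.6.1p1, counted without strand, and skipped exon tables of rMATS with inclusion and skipping counts. Tables of other splicing and polyadenylation tools were not used here. Replicates are the separate libraries of the labels. Gene counts were tested with edgeR 4.0.16 (R 4.3.3), a quasi-likelihood fit of all 22 libraries with TMM scaling and filterByExpr, and reads that matched no gene were not used. A call needed an adjusted p (Benjamini-Hochberg) under 0.01 together with an average of 50 normalized counts or more (counts divided by library size times TMM factor, scaled to the mean library). The SE printed with an edgeR log2 fold change is its absolute value divided by the square root of the F statistic. It was thus derived from the test, and for genes near 0 in Stem it is only a rough guide. DESeq2 1.42.0 was an alternative. Exon events with at least 20 counts per library on average in both types were tested with edgeR on paired inclusion and skipping counts at a negative binomial dispersion of 0. This form was chosen after seeing the data, among 7 forms run, because a form with estimated dispersion did not recover changes put into simulated data. In the simulation the spread between libraries was set beforehand and not fitted to these data. The simulation therefore does not show that a dispersion of 0 suits them.

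Named genes were the 4 called members that rose most and the 4 that fell most in each comparison, where libraries did not overlap, members called in at least 4 of 5 comparisons, those highest in 1 type or with a called exon, the ESRP, PTB, Tra2 and SR proteins and the 5 most abundant per kilobase in each type. Others are named only where a count or exon is described. The rule on names and the lists were set with earlier results of these data known.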

Additional observations from a re-analysis of the deposited data

Results flagged for a closer look

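Within types of 4 or 5 libraries, 8 of 111 groups of normalized counts held a library that stood apart from the others by Dixon's criterion, which chance gives in about 1 of 20 groups. In Tuft 5, 5 members stood above the other 4 Tuft libraries. Tuft 5 also had the most gene counts of its type (20892532, the others at most 11906187). Its share of reads outside exons was the lowest of its type (43.4%, the others 59.5% to 68.0%), and the part of this was not tested. Hnrnpab had 10459 normalized counts there (next library 7276), Hnrnpf 3943 (next 2431), Hnrnpu 13170 (next 8252), Srsf1 3294 (next 2405) and Srsf2 3358 (next 2664). In SecPDG 1, Hnrnpab was lower than in the other SecPDG libraries, at 10553 (next 13311). Celf6 was lower in Ent 4, at 54.75 (next 98.66), and Srsf12 was counted only in SecPDG 4 of that type, at 2.938 (others 0).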

How the results depend on the processing

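The members called in AbsPro stayed at 0 under every alternative, and no called member reversed. The other member counts below are values only, because calls over all genes moved with the settings too. With DESeq2's size factors Tuft had 2266 such calls (main fit 1468) and SecPDG had 1205 (main fit 707). Ent had 3082 in the main fit, 2215 without Ent 2 and 4303 without AbsPro 3. EEC had 3197 in the main fit, 4377 with DESeq2's size factors and 261 with only the 2 cell types. In SecPDG (1 call) there were 3 calls at an adjusted p under 0.05, 2 with DESeq2's size factors, 6 with library totals, 2 with the replicate block, 3 with only the 2 cell types, 4 with DESeq2, 3 without the 4 libraries with over 80% of reads outside exons, and 0 to 3 when 1 library was left out. In Tuft (2 calls) the same settings gave 8, 4, 7, 5, 11, 12 and 12, and 0 to 11 without 1 library, the 11 without EEC 1. In Ent (30 calls) there were 47 at an adjusted p under 0.05, 9 without the 4 libraries, and 17 to 57 without 1 library (17 without Ent 2, 18 without Ent 3, 46 without AbsPro 3 and 57 without EEC 1). In EEC (27 calls) there were 47 at an adjusted p under 0.05, 3 with only the 2 cell types, and 19 to 53 without 1 library (41 without AbsPro 1, AbsPro 3 or Tuft 4, 42 without Ent 1 and 53 without EEC 2). The 38 members that differed among the types became 32 to 58 (58 without EEC 1).

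Of the 30 calls in Ent, 26 were kept with DESeq2's size factors, 27 with DESeq2, 9 without the 4 libraries and 14 in every fit that left out 1 library. Of the 27 calls in EEC, the kept calls were 26, 27, 19 and 15. With the replicate block Ent had 45 calls and EEC 28. Of 44 same-number pairs 16 had deviations that correlated over 0.1 (range -0.3931 to 0.4884). Pairs of different number were not compared, so whether the numbers pair libraries was not settled. For exons no replicate block could be fitted, because the places in the tables carry no number. Without 1 library SecPDG had 0 to 4 exon calls and EEC 0 to 1. With a minimum of 50 counts the called EEC exon was not tested, so that setting gave 0 calls. The EEC exon call also became 0 with estimated dispersion (0, also 0 in the legacy fit), a common dispersion (0) and the likelihood ratio test (0). The cause of these changes was not tested. EEC had 2 libraries, and its shallowest held 4122122 gene counts.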
